A study of Mus musculus with 9 samples.

Results

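The 819 regions described here are stretches of open chromatin at the ends of non-coding RNA genes in B16 mouse melanoma cells, out of 15669 open regions in all. They were found from ATAC-seq peak lists, an assay in which a transposase inserts adaptors where the DNA is accessible. The 9214 most significant peaks on chromosomes 1 to 19 and X were kept in each of 9 libraries, and overlapping peaks were merged. A region belongs to the set when it lies within 1 kb of an annotated end of a non-coding RNA gene and more than 1 kb from the ends of every protein-coding gene, with pseudogenes left out. A further 1263 regions lay within 1 kb of both kinds of end and were left out by the second condition. Among the other open regions, 8591 had a coding gene end within 1 kb and 6259 had neither kind of end so close. Just inside the distance limit stood the regions of Gm40486 and Gm23527, at 994 and 993 bp from the non-coding end, and just outside it those of Gm38972 and Gm31108, at 1002 and 1004 bp. At the other limit, the n-TTagt9 and Gm46059 regions lay 1010 and 1015 bp from a coding gene end and were kept, while those of n-TRtcg5 and Gm39426, at 985 bp, were left out.

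The libraries formed 3 groups of 3, all of tumour cells sorted from tumours in mice harvested on day 15. B16_untreated was the B16 melanoma line with no treatment, and B16_IFNg was the same line exposed to interferon gamma before it was injected, for 2 weeks in replicates 1 and 2 and 3 weeks in replicate 3. Res499 was strain 499, which derives from B16 and is resistant to checkpoint blockade, with no treatment. The genotype of the lines, the strain, age and sex of the mice, and whether replicates came from separate mice are not stated in the labels, so any p-value measures only the spread between these libraries. Each group is 1 cell line, and Res499 is 1 resistant line. In sorted but bulk cells, a weaker peak from fewer cells with the site open and from less opening in every cell cannot be told apart.

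Non-coding RNA genes are transcribed without giving a protein. Long non-coding RNAs, such as Malat1, Neat1 and the hosts of small nucleolar RNAs, are made by RNA polymerase II, the enzyme that also makes messenger RNAs. MicroRNAs are short RNAs cut from hairpins that pair with messenger RNAs through a seed near their 5′ end. Transfer RNAs, 7SK, 7SL, Y and vault RNAs come from RNA polymerase III, and most small nuclear RNAs take part in splicing. An open site at the end of such a gene is often its promoter, although an annotated end may also be the far end of the gene.

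The promoter sequences of 6 regions are shown first because the group comparison and the description of steadily open sites turn on them. They come from RefSeq on GRCm38.p6 and run from 250 bases before to 50 after the annotated start, 5′ to 3′ on the gene's strand. Capitals mark matches on either strand to any of the 12 motifs listed further on. The regions that overlap the windows of Gm17767 (chr1:51596669-51596968, minus strand), E030011O05Rik (chr9:96752782-96753081, minus strand) and Gm4262 (chr16:11008648-11008947, plus strand) were called in every untreated library and in no Res499 library. Those at the windows of Snhg8 (chr3:123508287-123508586, minus strand), Dancr (chr5:74092810-74093109, plus strand) and Crnde (chr8:92356071-92356370, minus strand) were called in all 9 libraries. The coordinates are those of the windows, and the rest of each called region was not searched for motifs.
Gm17767: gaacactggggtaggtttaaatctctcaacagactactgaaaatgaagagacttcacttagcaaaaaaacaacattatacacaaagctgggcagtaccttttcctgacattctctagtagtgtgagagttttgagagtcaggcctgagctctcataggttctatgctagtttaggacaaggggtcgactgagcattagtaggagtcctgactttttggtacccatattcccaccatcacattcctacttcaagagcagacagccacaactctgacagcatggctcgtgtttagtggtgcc
E030011O05Rik: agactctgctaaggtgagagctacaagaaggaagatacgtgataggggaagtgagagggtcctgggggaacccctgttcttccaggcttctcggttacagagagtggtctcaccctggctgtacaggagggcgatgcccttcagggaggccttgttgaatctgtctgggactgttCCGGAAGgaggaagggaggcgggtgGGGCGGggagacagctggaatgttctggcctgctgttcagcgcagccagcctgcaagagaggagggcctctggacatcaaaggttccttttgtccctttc
Gm4262: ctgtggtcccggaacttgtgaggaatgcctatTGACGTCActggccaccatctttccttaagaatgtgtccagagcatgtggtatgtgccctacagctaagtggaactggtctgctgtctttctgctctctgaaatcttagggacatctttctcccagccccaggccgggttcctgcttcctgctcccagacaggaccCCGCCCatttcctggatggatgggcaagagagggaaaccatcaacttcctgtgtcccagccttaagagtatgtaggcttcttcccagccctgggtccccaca
Snhg8: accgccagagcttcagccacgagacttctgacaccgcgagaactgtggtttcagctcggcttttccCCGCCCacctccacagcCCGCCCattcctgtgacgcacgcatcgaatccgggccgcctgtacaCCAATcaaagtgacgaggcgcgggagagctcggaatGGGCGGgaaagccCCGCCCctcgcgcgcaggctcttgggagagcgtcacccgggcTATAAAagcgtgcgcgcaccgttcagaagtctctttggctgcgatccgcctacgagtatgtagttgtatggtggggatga
Dancr: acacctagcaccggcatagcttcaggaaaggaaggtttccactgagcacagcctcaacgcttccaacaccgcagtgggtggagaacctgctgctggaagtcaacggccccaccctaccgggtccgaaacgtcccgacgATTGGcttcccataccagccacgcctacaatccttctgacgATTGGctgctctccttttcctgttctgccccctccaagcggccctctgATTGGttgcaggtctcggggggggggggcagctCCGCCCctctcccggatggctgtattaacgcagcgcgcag
Crnde: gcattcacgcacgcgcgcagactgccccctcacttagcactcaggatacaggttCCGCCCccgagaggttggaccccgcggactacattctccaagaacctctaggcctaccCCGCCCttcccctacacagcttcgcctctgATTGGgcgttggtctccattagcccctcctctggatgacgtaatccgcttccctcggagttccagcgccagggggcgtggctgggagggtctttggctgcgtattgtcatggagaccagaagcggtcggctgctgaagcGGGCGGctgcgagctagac
The Snhg8 promoter held 4 GC boxes, a CCAAT box and a TATA motif, Crnde 3 GC boxes and a CCAAT box, and Dancr 3 CCAAT boxes and a GC box. Gm4262 held a GC box and a cyclic AMP response element, E030011O05Rik a GC box and an ETS motif, and the Gm17767 window none of the 12 motifs. The Gm17767 region overlaps that window only in part and extends beyond it. Their GC contents were 62.0% for Snhg8, 62.7% for Crnde, 61.3% for Dancr, 54.3% for Gm4262, 57.7% for E030011O05Rik and 44.3% for Gm17767.

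Mature microRNA sequences from RefSeq (GRCm38.p6) are shown for 5 microRNA genes whose regions the results describe: Mir210 and Mirlet7i, listed genes called in all 9 libraries, Mir5620 and Mir7240, whose ranks differed in order between groups, and Mir713, called in 1 group and not another. Capitals mark the seed, bases 2 to 8 counted from the 5′ end. They are miR-210-3p (chr7:141221407-141221428, minus strand), let-7i-5p (chr10:122985698-122985719, minus strand), miR-5620-5p (chr7:7298891-7298913, plus strand), miR-7240-5p (chr8:70798135-70798155, plus strand) and miR-713 (chr13:62760807-62760825, plus strand).
miR-210-3p: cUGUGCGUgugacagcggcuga
let-7i-5p: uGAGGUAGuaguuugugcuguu
miR-5620-5p: aCGAGGCAggggcuuugacugug
miR-7240-5p: uUGGAGAGgaccgccgucgga
miR-713: uGCACUGAaggcacacagc
Of the 32 microRNA regions, 31 matched an entry of the sequence table by their nearest gene. No seed was shared by 2 or more of the mature sequences of these nearest genes. A further microRNA gene at the same region, such as Mir34c beside Mir34b, was not compared. The let-7i-5p seed was carried by 11 mature microRNAs of the whole table, and the miR-210-3p, miR-7240-5p and miR-713 seeds by 1 each.

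The deposited lists held 9221 to 25374 peaks, with the 3 untreated lists at 15045, 25374 and 20139, and the equal lists removed this difference in length but not in depth. No read counts are in the lists. By the shortest peak of a list, the libraries were split into a long class of at least 150 bp (replicate 3 of each group and B16_untreated replicate 1) and a short class (the other 5). These are called fragment classes here, but no fragment length is stated in the labels. The cut of 150 bp was a choice, and what the split stands for was not tested. The only library with 3 weeks of interferon is also the only long one of its group, so these cannot be told apart. Of 10 melanocyte lineage genes, 8 had a kept peak within 1 kb of an end in some library, with 3 to 6 per library, and Sox10 and Mlana had none. None of 10 leukocyte genes (among them Ptprc, Cd3e and Itgam) and none of 4 endothelial genes (among them Pecam1) had one in any library. Of 5 fibroblast genes, Col1a1 alone had one, with 0 to 1 genes per library.

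With every list cut to 9214 peaks, the number of set regions with a kept peak was much the same in the 3 groups. Equal lists hold the number of all regions called nearly level, so the count reflects only the set's share of each list. Where a peak had to cover 50% of the region, the group means were further apart, at 388 in B16_untreated, 265 in B16_IFNg and 236 in Res499. The same means over all regions were not made, so this is not a result about the set. Losses against untreated cells also rose over all regions there, to 408 in B16_IFNg and 617 in Res499, from 86 and 142. Untreated cells had 418, 419 and 444 of the 819 called, interferon-exposed cells 418, 379 and 442, and Res499 cells 400, 382 and 420. The group means were 427 ± 14.7 (SD, n = 3), 413 ± 31.8 (SD, n = 3) and 401 ± 19 (SD, n = 3), and the 3 groups overlapped. Fragment class moved with the count: the 4 long libraries had 418 to 444 and the 5 short ones 379 to 419, and its part in the difference was not tested. As a share of all regions called in a library, the set made up 4.65 ± 0.15% in B16_untreated, 4.54 ± 0.306% in B16_IFNg and 4.45 ± 0.135% in Res499 (SD, n = 3 each). The highest share was 4.83% in B16_IFNg replicate 3 and the lowest 4.22% in B16_IFNg replicate 2, so 1 group held both extremes.

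**Figure D1:**
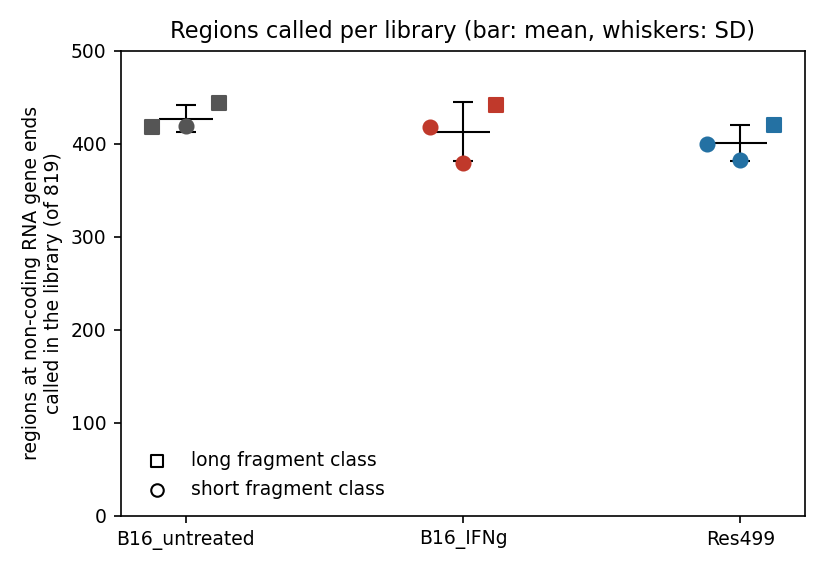
Number of the 819 regions at non-coding RNA gene ends called in each library (y axis) by group (x axis), with squares for the long and circles for the short fragment class, bars for the group mean and whiskers for the SD (n = 3). The groups overlap, from 379 to 444, and the highest value of each group is a long-class library.

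Most regions at non-coding RNA ends were seen in some libraries and not in others. Of the 819, 142 (17.3%) were called in all 9 libraries, 459 (56.0%) in 2 to 8 and 218 (26.6%) in 1. Regions near coding gene ends were called in all 9 in 43.6% of cases and in 1 in 8.86%. Regions near neither kind of end had 9.51% and 39.1%, so the non-coding ends lay between. Their median width was 625 bp, against 821 bp near coding ends and 433 bp near neither. Within a library, the median rank of the called set regions lay between 4842.5 and 5519, where 1 is the most significant peak, against 4447 to 4606 for all called regions. The set thus stood lower than all called regions in every one of the 9 lists. The library medians were 3922 to 4058 near coding ends and 5831 to 6171.5 near neither kind of end, so the set lay between these too. Once only regions called in all 9 libraries were taken, the median rank was 2573.5 in the set, 2666.5 near coding ends and 2828 near neither.

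**Figure D2:**
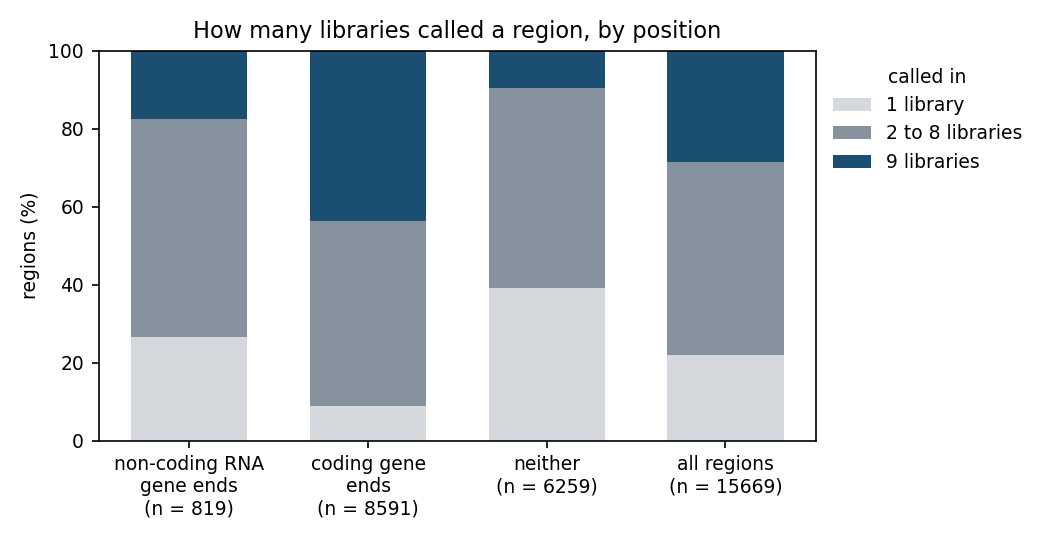
Share of regions (y axis, %) called in 1, in 2 to 8 or in 9 libraries, for regions at non-coding RNA gene ends, near coding gene ends, near neither, and all regions (x axis, with the number of regions). The dark part, called in 9 libraries, is 17.3% for non-coding RNA ends, against 43.6% for coding ends and 9.51% for neither.

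Regions with a non-coding end inside them, and those inside coding genes, were more often called in all 9 libraries. A region merges overlapping peaks, so a wider one more readily holds an end, and the part of width was not tested. An annotated non-coding end lay inside 454 of the regions (55.4%), and 24.7% of these were called in all 9 libraries. The share was 7.76% for 116 regions up to 250 bp from the end, 9.52% for 105 at over 250 and up to 500 bp and 7.64% for 144 farther away. Beyond the end itself, then, the share did not fall further with distance. Of the 819, 290 (35.4%) lay inside a protein-coding gene, more than 1 kb from its ends, and 22.8% of them were called in all 9 libraries, against 14.4% of the 529 outside. The median distance to the nearest coding gene end was 14002 bp, with 204 regions (24.9%) at 1 to 5 kb and 155 (18.9%) at over 50 kb. The 819 regions belong to 798 nearest genes, and 98 of them had more than 1 non-coding RNA gene within 1 kb.

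By gene type, 683 regions (83.4%) lay at long non-coding RNA genes, 59 at transfer RNA genes, 32 at microRNA genes, 27 at small nuclear RNA genes and 8 at small nucleolar RNA genes. The other 10 were 3 of the miscellaneous type, 2 at Y RNA genes, 2 at guide RNA genes of Cajal bodies (Scarna2 and Scarna6), and 1 each at the antisense gene Dlx1as, the telomerase RNA gene and 1 scRNA gene. The share called in all 9 libraries was 17.7% at long non-coding RNA, 18.8% at microRNA, 15.3% at transfer RNA and 7.41% at small nuclear RNA genes, and 0 of the 8 at small nucleolar RNA genes. Regions at transfer RNA genes were the widest of these classes, with a median of 946 bp, against 610 bp at long non-coding RNA genes. More of the microRNA regions lay inside a coding gene (56.2%) than of the long non-coding RNA (36.7%) or transfer RNA regions (5.08%).

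The most significant regions of the set were at long non-coding RNA genes. The first by median rank was Gm51663, inside Kifap3 (chr1:163779221-163780047), with ranks of 79, 18 and 34 in untreated, 44, 29 and 69 in interferon-exposed and 106, 74 and 30 in Res499 cells. The groups overlapped there. 1700028E10Rik, inside Stard13 (chr5:151368044-151369191), had 54, 31 and 30, then 155, 160 and 104, then 35, 72 and 186, so that every interferon-exposed library stood below every untreated one. Gm35417, inside Edem1 (chr6:108828148-108829371), had 99, 72 and 172, then 55, 46 and 243, then 131, 76 and 350, with all groups overlapping.
Further down this list, AY036118 (chr17:39847554-39848785) had ranks of 33 to 2016. Its 4 long-class libraries held 176, 1116, 948 and 2016 and the 5 short ones 33 to 308; the gene resembles ribosomal RNA, so reads from repeats may map to it and its ranks are uncertain. Gm36523, inside Oma1, had ranks of 87 to 2698 and Gm10433 of 89 to 1409. Mir210, the gene of a microRNA induced by low oxygen, was the only microRNA among the 10 best, with a median of 471. Gm52862, Gm26901 and B330016D10Rik complete the 10 and are described with the rank comparison.

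Transfer RNAs carry amino acids to the ribosome, and several regions at their genes were open in every library. The best ranked, at a cluster of n-TYgta1, n-TYgta2, n-TRacg3 and n-TAagc14 on chr3:19627905-19629324, ranked 834, 877 and 442 in untreated, 2365, 3678 and 102 in interferon-exposed and 3614, 743 and 653 in Res499 cells. The groups overlapped, and the best and worst of the 6 untreated and interferon-exposed ranks were both from interferon-exposed libraries. The region at n-TNgtt14 (chr5:149228942-149229588) ranked 266 to 3481 and that at n-TQttg6 (chr11:95858384-95859773) 1127 to 6394, with overlap again. The number of the 59 transfer RNA regions called was 45, 26 and 38 in untreated, 31, 30 and 36 in interferon-exposed, and 31, 23 and 34 in Res499 cells.
The groups overlapped in that count, and the fragment classes did not. Long-class libraries had 45, 38, 36 and 34, and short ones 26, 31, 30, 31 and 23. The same held at small nuclear RNA genes: of 27 regions, 12, 17, 18 and 11 were called in the long class and 9, 5, 6, 9 and 8 in the short one. The Gm22614 region (chr3:96488838-96489453), for one, was called in all 4 long-class libraries, at ranks 718, 2089, 1972 and 3498, and in 1 of the 5 short ones, at 6599. Both gene families have many near-identical copies, so which copy a read came from is uncertain in these values, and the part of fragment class was not tested.

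**Figure D3:**
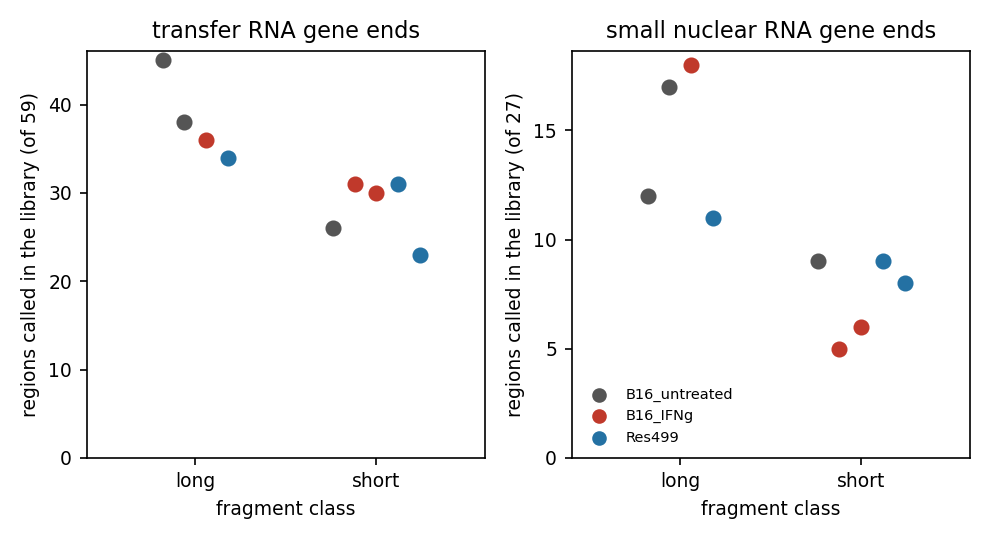
Regions called per library at transfer RNA gene ends (left, of 59) and small nuclear RNA gene ends (right, of 27) on the y axis, for libraries of the long and the short fragment class on the x axis, with 1 point per library coloured by group. In both panels the lowest long-class library, at 34 and 11, lies above the highest short-class library, at 31 and 9.

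Known genes were taken by role from 4 lists, starting with the hosts of small nucleolar RNAs, whose introns carry the guides that modify ribosomal RNA. Of 21 listed, 12 had a region of the set, 5 (Gas5, Snhg1, Snhg6, Snhg10 and Zfas1) only a region that also lay near a coding end, and 4 none. Called in all 9 libraries were Snhg5, Snhg8, Snhg16 and Dancr, a host gene known for holding back differentiation. The Snhg8 region (chr3:123508079-123509323) ranked 195, 3519 and 2449 in untreated, 528, 672 and 1170 in interferon-exposed, and 1248, 477 and 570 in Res499 cells.
The spread of Snhg8 within the untreated group covered all other libraries. Dancr (chr5:74092725-74093506) ranked 4338, 2708 and 1925, then 1696, 1064 and 6461, then 2210, 381 and 2768. Its groups overlapped as well. Snhg9 and Snhg15 were called in 8 libraries, Snhg3 in 5, Snhg17 in 4, Snhg7 in 3, Snhg4 and Snhg12 in 2 and Epb41l4aos in 1. Snhg12 was called in 2 interferon-exposed libraries alone, at ranks 7332 and 7500, and Snhg17 in 2 interferon-exposed and 2 Res499 libraries and no untreated one.

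Among nuclear long non-coding RNAs, 15 of the 34 found in the gene table had a region of the set, counting Lncpint under both its listed names, and Crnde was called in all 9 libraries. Tug1 and Hotairm1 had only a region that also lay near a coding end. The Crnde region (chr8:92355658-92356596), 1200 bp from Irx5, ranked 5466, 2529 and 2187 in untreated, 2138, 2991 and 1005 in interferon-exposed and 307, 1472 and 4997 in Res499 cells, with the groups overlapping. Malat1, the RNA of nuclear speckles, had a region 534 bp from its end that was called in 2 untreated libraries (ranks 8554 and 8293), 1 interferon-exposed (6152) and all 3 Res499 libraries (5021, 4174 and 7787). Where called, its Res499 ranks of 5021 and 4174 were better than the ranks of the other groups, and 7787 was not. Neat1, the scaffold of paraspeckles, was called in 1 Res499 library, at 8483.
Of the genes of X inactivation, Jpx was called in 8 libraries, and Xist, Tsix and Ftx had no region within 1 kb. The imprinted RNAs Kcnq1ot1 and Airn, which silence their neighbours on 1 parental chromosome, were called in 4 and 2 libraries, Mirg in 4, and H19 and Meg3 had no region. Carmn, the host of the Mir143 and Mir145 genes, was called in 8. Trp53cor1, a p53 target beside Cdkn1a, was called in 4 libraries, and Firre in 3. Dleu2, the host of the miR-15a and miR-16-1 hairpins, had 2 regions, called in 4 and 2 libraries, of which none was untreated. Pvt1, Lncpint and Morrbid were called in 1 library each.

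Of 50 listed microRNAs and hosts in the table, 6 had a region of the set, with Mir210, Mirlet7i and Mir22hg called in all 9 libraries, Mir193a in 6, and Mir34b and Mir34c, which are p53 targets, sharing 1 region called in 1. The Mir210 region (chr7:141221572-141222453) ranked 364, 427 and 375 in untreated, 2468, 870 and 790 in interferon-exposed and 558, 155 and 471 in Res499 cells. Its interferon-exposed ranks were all worse than those of both other groups, which overlapped each other. The Mirlet7i region (chr10:122985340-122986729), at a member of the let-7 tumour suppressor family, ranked 4539, 2206 and 2349, then 4763, 3499 and 2466, then 2496, 835 and 1308.
The remaining 44 had no region of the set, among them the immune microRNA Mir155 and the melanocyte microRNA Mir211. Outside the list, Mir7240, inside Mast3 (chr8:70796897-70797926), ranked 4640, 5778 and 3938 in untreated, 1670, 1895 and 1543 in interferon-exposed and 4139, 4540 and 946 in Res499 cells. Every interferon-exposed rank was better than every untreated one. Mir5620, inside Clcn4 (chr7:7298140-7299609), ranked 595, 539 and 1267, then 349, 247 and 2351, then 1971, 2324 and 1519, with every Res499 library below every untreated one.

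The last list holds RNA polymerase III and spliceosomal RNA genes, and a few that are neither, such as Terc and the U3 genes. Of 21 listed genes found, 10 had a region of the set, 7 only a region also near a coding end, and 4 none. Called in all 9 libraries were those of Rn7sk, the RNA that holds back elongation of transcription, Rn7s2, a 7SL RNA of the signal recognition particle, Rny1, a Y RNA, and Vaultrc5, a vault RNA. The Rny1 region (chr6:47788090-47788828) ranked 894, 2316 and 2525 in untreated, 3149, 5807 and 2830 in interferon-exposed and 2934, 6656 and 4089 in Res499 cells. Every untreated rank was better than all 6 others. The Rn7s2 region (chr12:69361182-69362227) ranked 221 to 3410 with overlapping groups, and its near-identical copy Rn7s1 makes it uncertain.
The regions of Rnu1a1, Rnu2-10 and the U3 gene Rnu3b1 were called only in long-class libraries, in 1, 2 and 2 of them, Rny3 in 1 long-class library and Rnu11, of the minor spliceosome, in 3 libraries of both classes. No region on the 4 lists was gained or lost as defined next, other than Terc, the RNA template of telomerase.

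**Figure D4:**
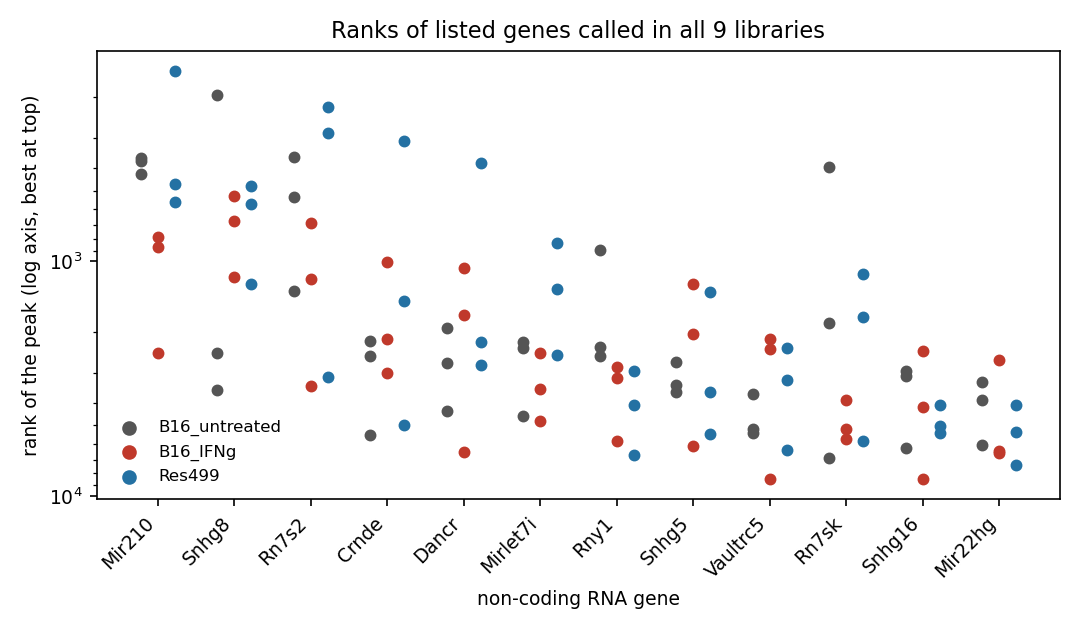
Rank of the peak (y axis, log scale, best at the top) of the 12 listed genes whose region was called in all 9 libraries (x axis), with 1 point per library coloured by group. For most genes the 3 groups overlap, while for Mir210 the 3 interferon-exposed points, at 790 to 2468, lie below the other 6.

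Groups were compared by calls first: a region was gained when called in all 3 libraries of the first group and in 0 of the second, and lost in the reverse case. The regions compared were those called in at least 3 of the 6 libraries. Single regions get no p, because the smallest an exact test of 3 against 3 libraries can give is 0.1. The pattern needs all libraries and therefore holds in both fragment classes by construction.

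Interferon-exposed against untreated cells asks which of these sites opened or closed after long exposure to interferon gamma. No region of the set was gained and 5 of the 430 compared (1.16%) were lost, where 0.59% of all 9494 compared regions were gained and 0.906% lost. The lost share of the set was near that of all regions. The 5 lay at Gm17767, 9330175M20Rik, Gm807, Gm38708 (inside Gata2, a transcription factor of blood progenitors) and Gm31684 (inside the transcription factor gene Klf3).
The Gm17767 region (chr1:51596830-51597431), at the annotated start of the gene whose promoter is shown above, ranked 6371, 7238 and 5496 in untreated cells. It had no deposited peak at all in the other 6 libraries, whose full lists held 9221 to 16240 peaks. The gene runs from 51509505 to 51596718, and a second region at its other end (chr1:51509133-51509638) was called in 8 of 9 libraries, at 5803, 4013 and 2251 in untreated, 1712, 3180 and 3605 in interferon-exposed and 8326 and 3248 in 2 Res499 libraries. The ends of this 1 gene thus differed in their calls.
The other 4 had weaker peaks below the kept ranks or calls in Res499. 9330175M20Rik (chr1:51333749-51334460) ranked 5412, 7982 and 8096 in untreated cells, 12525 and 10979 in the full lists of B16_IFNg replicates 1 and 3, and 9068 in Res499 replicate 2. Gm807 (chr13:99100303-99101165) ranked 3860, 5587 and 7670 in untreated cells, 14956 in B16_IFNg replicate 1, and 3874 and 7608 in Res499 replicates 2 and 3. Gm38708 (chr6:88198399-88198843) ranked 7280, 6692 and 7303 in untreated cells and 3702, its best rank of all, in Res499 replicate 1. Gm31684 (chr5:64818266-64818866) ranked 7729, 8919 and 7491, with 9787 in the full list of B16_IFNg replicate 3 and 8237 in Res499 replicate 3. So 4 of the 5 were kept in 1 or 2 Res499 libraries, and Gm17767 in none.
With each of the 6 libraries left out in turn, which leaves fewer calls to meet, the set had 3 to 10 gained and 7 to 17 lost regions, against 110 to 191 and 154 to 281 of all regions. With all deposited peaks, regions were merged anew and the set was chosen again. There 0 were gained and 55 lost, against 5 and 771 of all regions. The untreated lists are the longer ones, and the part of list length was not tested. With a peak covering 50% of the region 22 were lost, against 408 of all.

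Res499 against untreated cells asks what distinguishes the resistant line. In the set 4 of 424 compared regions (0.943%) were gained and 8 (1.89%) lost, against 0.919% and 1.52% of all 9360 regions. Both shares were near those of all regions. Gained were Terc, Gm6598 (inside Tmem248), Gm39001 (inside 1700008O03Rik) and F730035M05Rik. Lost were Gm17767, E030011O05Rik, Gm4262, Gm34608, Gm35039, Gm34375 (inside Padi2, an enzyme that converts arginine to citrulline), Gm31774 (inside the steroid enzyme gene Hsd17b2) and Gm36441.
The Terc region (chr3:96414337-96414907) contained the gene end and ranked 8324, 2381 and 7807 in Res499 cells. It ranked 3708 and 8853 in B16_IFNg replicates 2 and 3, and, below the kept peaks, 12599, 11284 and 10217 in untreated cells and 13611 in B16_IFNg replicate 1. A peak was therefore deposited in all 9 libraries, and the difference is one of rank. The call did not hold when all deposited peaks were used, when peaks were ranked by fold enrichment, or when a peak had to cover 50% of the region.
Gm6598 (chr5:130222187-130222706) ranked 2944, 6802 and 7648 in Res499 cells, 4849 in B16_IFNg replicate 3 and 11150 to 13294 in the full untreated lists. Gm39001 (chr7:44373819-44374453) ranked 6154, 5580 and 7664, with 5901 in B16_IFNg replicate 3 and 10303 to 12631 in the full untreated lists. F730035M05Rik (chr12:70234522-70235407) ranked 7029, 8458 and 8145, with 8492 and 6762 in B16_IFNg replicates 1 and 3. All 4 gained regions thus had a weaker deposited peak in at least 2 untreated libraries, and each was kept in at least 1 interferon-exposed library, replicate 3 in every case.
Among the lost regions, E030011O05Rik (chr9:96752403-96753095) ranked 5100, 3200 and 4003 in untreated and 7803 and 6808 in interferon-exposed cells of replicates 1 and 2, and had no deposited peak in any Res499 library. Gm4262 (chr16:11008164-11008995) ranked 6900, 7426 and 8312, with 6464 and 8738 in B16_IFNg replicates 1 and 3, and no deposited Res499 peak. Gm35039 (chr3:65927473-65928153) ranked 6965, 4472 and 4620, with 2576 and 8332 in B16_IFNg replicates 2 and 3, and none in Res499. With Gm17767, these were the 4 of the 8 with no Res499 peak at any rank.
Better ranked in untreated cells were Gm34608 (chr2:170469619-170469934), at 2293, 2520 and 6256, and Gm34375 (chr4:140929719-140930533), at 1967, 3770 and 5594. Each was kept in B16_IFNg replicate 1, at 4481 and 8396, and had a weak peak in Res499 replicate 1, at 11533 and 10492. Gm31774 (chr8:117742505-117743013) ranked 6483, 6261 and 6035, with 3229 and 7179 in B16_IFNg replicates 2 and 3. Gm36441 (chr12:25208827-25209240) ranked 8194, 3853 and 8140, with 6050 and 7052 in B16_IFNg replicates 1 and 2. All but Gm17767 were thus kept in 1 or 2 interferon-exposed libraries.
With each of the 6 libraries left out in turn, 6 to 13 regions were gained and 12 to 24 lost, against 143 to 240 and 227 to 410 of all regions. Over all deposited peaks, again with the set chosen anew, 0 were gained and 82 lost, against 8 and 1210 of all. With a peak covering 50% of the region the counts were 1 and 24, against 21 and 617. The losses of Gm17767 and E030011O05Rik held in both, and with peaks ranked by fold enrichment. That of Gm4262 held in both but not by fold enrichment, where Res499 and untreated cells differed by 0 libraries called.

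Res499 and interferon-exposed cells differed at few regions of the set. Of 403 compared, 2 (0.496%) were gained in Res499 and 1 (0.248%) lost, against 0.627% and 0.875% of all 9254 regions. Gm33819 (chr3:15156691-15157101) ranked 9128, 3743 and 3415 in Res499 cells and had no deposited peak in any interferon-exposed library, while untreated replicate 3 had it at 6164. Gm52771 (chr5:32726173-32726458) ranked 5436, 1303 and 8636 in Res499 cells, with 7123 in untreated replicate 1.
The lost region was that of Mir713 (chr13:62760313-62760828), with the mature sequence given above inside it. It ranked 9154, 7391 and 6135 in interferon-exposed cells and 8136 and 7694 in untreated replicates 2 and 3, and had 1 weak Res499 peak, at 15135. With each of the 6 libraries left out in turn, 2 to 12 regions were gained and 4 to 17 lost, against 127 to 176 and 160 to 239 of all regions. Over all deposited peaks, again with the set chosen anew, the counts were 2 and 8, against 33 and 137 of all. The 3 comparisons share their libraries, so they are not independent of each other.

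**Figure D5:**
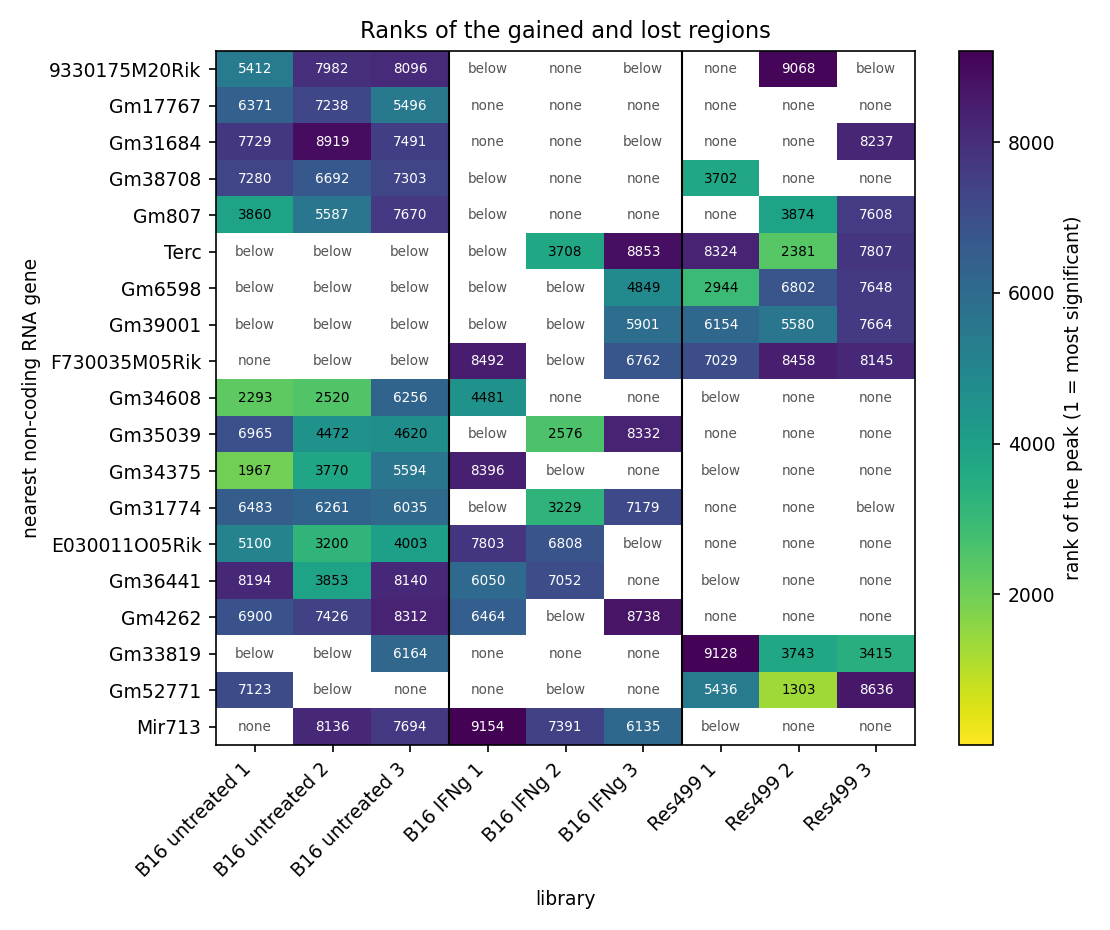
Rank of the peak in each library (x axis) for the 19 regions gained or lost in any comparison (y axis, nearest non-coding RNA gene), with colour for the rank, 1 being the most significant; "below" marks a deposited peak under the kept ranks and "none" no deposited peak. Gm17767 has ranks of 5496 to 7238 in the 3 untreated libraries and no peak elsewhere, and Terc has a peak in all 9 libraries.

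Ranks were then compared over the 142 regions of the set called in all 9 libraries, where a missing peak plays no part. Interferon-exposed cells ranked 7 of the 142 better and 13 worse than untreated cells in all 3 libraries, against 5.22% and 4.89% of all 4481 such regions, and the set's shares were 4.93% and 9.15%. Res499 cells ranked 5 better and 10 worse than untreated cells (3.52% and 7.04%, background 5.69% and 6.14%). Against interferon-exposed cells they ranked 11 better and 6 worse (7.75% and 4.23%, background 5.04% and 5.51%). The median difference in log2 rank, where a positive value means a worse rank in the first group, was 0.2 for interferon-exposed against untreated cells, 0.03 for Res499 against untreated and -0.06 for Res499 against interferon-exposed cells.
The 7 ranked better after interferon were Gm26901, Gm40034, B330016D10Rik, Gm7854, Gm33560, Mir7240 and Dubr. The 13 ranked worse were Mir210, Rny1, 1700028E10Rik, Gm40452, Hk1os (inside the hexokinase gene Hk1), Zfp286os, Gm52500, Gm46059, 2410006H16Rik, 2310015A10Rik, E430024I08Rik, Gm33409 and Gm23205. At Hk1os, for one, the interferon-exposed ranks were worse than all 6 others. It ranked 3089, 1974 and 1923 in untreated, 5356, 5251 and 4952 in interferon-exposed and 489, 1969 and 4723 in Res499 cells.

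No single rank difference passed limma's test on log2 rank, fitted over all 4481 regions. The number of set regions with an adjusted p (Benjamini-Hochberg) under 0.05 was 0 in each comparison, with 12, 11 and 11 of 142 at an unadjusted p under 0.05 for interferon-exposed against untreated, Res499 against untreated and Res499 against interferon-exposed cells. At that unadjusted p stood 200, 296 and 267 of all 4481 regions. Of all regions 0.0223%, 0.0446% and 0% passed. A p above the threshold therefore does not show that ranks were the same.
The smallest p-values name where a difference was nearest to the threshold. Between Res499 and untreated cells it was at Gm52862 (chr6:47753424-47754452), which ranked 485, 111 and 254 in untreated, 98, 111 and 62 in interferon-exposed and 40, 21 and 39 in Res499 cells. Its Res499 ranks were better than all 6 others, and the log2 rank difference from untreated cells was -2.90 (SE 0.65, limma adjusted p = 0.283). B330016D10Rik (chr4:141545123-141547179) ranked 875, 3313 and 2296 in untreated, 847, 244 and 509 in interferon-exposed and 417, 310 and 154 in Res499 cells, a difference of -2.80 (SE 0.70, limma adjusted p = 0.32). Both other groups had better ranks than untreated cells there in every library. Zfp286os, inside Zfp286 (chr11:62756670-62757679), went the other way, at 1561, 373 and 878 against 4785, 5473 and 2218 in Res499 cells, with 2806, 1737 and 3932 in interferon-exposed cells (Res499 difference 2.28, SE 0.67, limma adjusted p = 0.464).
Between interferon-exposed and untreated cells the smallest p-values were at Gm26901 (chr1:7397379-7398428), Gm40452 (chr7:113048311-113048736) and 1700028E10Rik, with log2 rank differences of -2.60 (SE 0.79), 2.35 (SE 0.72) and 1.89 (SE 0.66), each with a limma adjusted p of 0.997. Gm26901 ranked 1661, 341 and 839 in untreated, 171, 94 and 133 in interferon-exposed and 508, 93 and 574 in Res499 cells. Gm40452 ranked 1749, 527 and 685, then 7280, 2933 and 3958, then 2512, 6196 and 1248. In neither region did interferon-exposed and untreated cells overlap.
Between Res499 and interferon-exposed cells, the second and the third smallest p-values were at 1700012D14Rik and B930059L03Rik, with log2 rank differences of 2.23 (SE 0.73, limma adjusted p = 0.638) and -2.30 (SE 0.76, limma adjusted p = 0.662). 1700012D14Rik (chr7:111122099-111123069) ranked 1351, 822 and 452, then 869, 1271 and 215, then 3662, 1940 and 3441, so that all Res499 ranks were worse than the 6 others. B930059L03Rik (chr12:110591078-110592105) ranked 945, 2570 and 3012, then 1247, 5801 and 818, then 481, 354 and 294, and all Res499 ranks were better.

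What the regions share in sequence was read from the promoter windows of 250 bases before to 50 after the annotated start. Such a window of a non-coding RNA gene was overlapped by 328 of the 819 regions (40.0%), by 64.8% of those called in all 9 libraries and by 22.5% of those called in 1. The window table held the nearest gene of 545 of the 819 regions, of 107 of the 142 called in all 9 and of 132 of the 218 called in 1, and the 3 shares are over all regions, with or without an entry. The median GC content was 58.0% in the 378 windows under set regions, 62.3% in those under regions called in all 9 and 54.7% in those under regions called in 1, against 52.7% in all 32817 windows. The observed over expected CpG ratio, a measure of CpG islands, was 0.622, 0.749 and 0.406, against 0.383 in all. Both values were highest under the regions called in all 9 libraries.
The 12 motifs searched on both strands were the GC box GGGCGG, the CCAAT box CCAAT, ETS CCGGAAG, CRE TGACGTCA, AP-1 TGANTCA, the E-box CACGTG, the M-box TCATGTG, the TATA motif (TATAAA), GAS TTCNNNGAA, and the longer NRF1, ISRE and CTCF core motifs. None of these contains another, although matches may overlap in part. A match is only a run of letters. The GC box was in the windows of 50.9% of the 328 regions, 73.9% of the 92 called in all 9 libraries and 36.7% of the 49 called in 1. It was in 35.6% of all windows, 46.6% of coding windows and 15.2% of non-coding windows not under a set region. The share over the 328 regions was thus near that of coding windows. AP-1 went the other way, at 3.26% of regions called in all 9 (3 of 92) and 18.4% of those called in 1 (9 of 49), with 7.81% of all windows. These counts are small. Over the 328 regions AP-1 was at 9.45%, against 9.32% of non-coding windows not under a set region. Over the 328 regions the interferon motifs were at or below the level of all windows: GAS in 7.01% of regions against 8.29%, and ISRE in 3.05% against 3.43%. In regions called in 1 library they were at 10.2% and 4.08%, and in those called in all 9 at 4.35% and 3.26%. The E-box was in 13.1% of the 328 regions, against 7.15% of all windows, 7.91% of coding windows and 5.69% of non-coding windows not under a set region. A region may overlap more than 1 window, so its chance of a match is somewhat above that of a single window.
The CTCF core, bound by the insulator protein CTCF, was in the windows of 16 of the 328 regions (4.88%), against 0.558% of all windows, 0.566% of coding windows and 0.402% of non-coding windows not under a set region. By breadth these were 4.35% of regions called in all 9 libraries, 3.21% of those called in 2 to 8 and 12.2% of those called in 1. The site lay inside the region itself in all but Gm39000 and Gm17197. A few sites are shown with 4 bases on either side, as the promoter strand reads, with the 12-base match in capitals. They stand for regions open in all 9 libraries (Gm46771 at chr2:148681108-148681119, minus strand, and Gm46218 at chr10:29313534-29313545, minus strand), called in 6 or 7 libraries (Gm39228 at chr8:94183323-94183334, plus strand, and Gm30771 at chr7:38061223-38061234, plus strand) and called once (Gm38293 at chr1:180768645-180768656, minus strand, and Gm41504 at chr16:94713916-94713927, minus strand).
Gm46771: ccccGCCCCCTAGTGGgctc
Gm46218: agagCCAGCAGAGGGCagtg
Gm39228: aaacGCCCCCTGCTGGgtgc
Gm30771: gcagCCACCAGATGGCagca
Gm38293: gtgaGCCCTCTGGTGGccat
Gm41504: atgcCCACCAGGGGGCgctg
The Gm46771 region had a median rank of 813 and that of Gm46218 2831. The Gm39228 region was called in 3 untreated, 2 interferon-exposed and 1 Res499 library, and that of Gm30771 in 3, 3 and 1. Gm38293 and Gm41504 were each called in 1 interferon-exposed library.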

How the data were processed

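The data are ATAC-seq peak lists of 9 libraries, 1 list per library, called separately and not on pooled replicates, as the deposited files show. The build of the coordinates is GRCm38 (mm10), and reads had passed through CASAVA, cutadapt 1.9 and Bowtie2 2.2.4 before peak calling with MACS2, per the submitters' processing notes. Which MACS2 version and options were used, and whether reads were shifted to the transposase cut sites, is not given in the sources used here. The lists hold no read counts, so the depth per library is not stated, and no interval that needs it is given.

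Each peak carries a score, a fold enrichment (a ratio), a −log10 p and a −log10 q, all as deposited by the authors. They were used only to rank and filter peaks within a list. Peaks were ranked by −log10 p, and the −log10 p of the last peak kept ran from 4.92 (Res499 replicate 2) to 16.4 (B16_untreated replicate 2), so the same rank stands for different evidence in different libraries. The other deposited column, the summit's place in the peak (other), was not used, per the file's layout.

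Python 3.11.15 with pandas 2.3.3 and numpy 2.4.6, and limma 3.58.1 in R 4.3.3, were used. Between 3 and 17 peaks per library, on sequence other than chromosomes 1 to 19 and X, were left out. A region was called in a library when a kept peak overlapped it by 1 base, and its rank is that of its best peak. Gene ends came from a RefSeq table of GRCm38.p6 without exons or strand, so exons, introns and UTRs are not given. Strand was read from the RefSeq promoter and microRNA tables. The nearest non-coding RNA gene names each region. limma was fitted to log2 rank over all regions called in all 9 libraries, with 1 shared spread and Benjamini-Hochberg adjustment over all regions at 0.05. The scripts for calls and for limma were tested on simulated data for Res499 against untreated cells. limma recovered 25% of 100 planted log2 rank shifts of 2 and 94% of 100 shifts of 4, with 5 unchanged regions called. Of the planted gains and of the planted losses, 73% each were recovered, and 131 unchanged regions also met one of these patterns.

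The members, the gene lists and the tests were chosen with earlier results of these data known. The rule for named genes took every listed gene with a region of the set, every gained or lost region, the 10 best median ranks, and, where none passed limma, the 3 smallest p-values per comparison. Of the regions this rule names, 1, with the smallest p between Res499 and B16_IFNg, is not reported here. Regions outside that rule, such as Mir7240, Mir5620, Hk1os, Rny1 by its ranks, the transfer and small nuclear RNA examples and the CTCF core examples, were chosen after their values were seen. Alternatives were all deposited peaks, the better 4607 peaks, a peak covering 50% of the region, ranking by fold enrichment, a lenient rule, a 500 bp window, transfer and ribosomal RNA genes left out, uncalled regions set to rank 9215, fragment class as a covariate, the replicate number as a block, and leaving out each library in turn.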

Additional observations from a re-analysis of the deposited data

How the results depend on the processing

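The counts of gained and lost regions depended on how calls were made. For all peaks, the better 4607 peaks and ranking by fold enrichment, regions were merged anew and the set was chosen again, so it was not the same 819. For interferon-exposed against untreated cells (0 gained and 5 lost), lost regions were 55 with all deposited peaks, 22 with a peak covering 50% of the region and 10 by fold enrichment. Gained regions were 2 with the better 4607 peaks and 6 by fold enrichment, and the lenient rule (2 of 3 against 0, or 3 against 1) gave 33 gained and 44 lost. For Res499 against untreated cells (4 gained and 8 lost), the counts were 0 and 82 with all peaks, 1 and 24 with 50% cover and 38 and 63 under the lenient rule, and 1 was gained with the better 4607 peaks. For Res499 against interferon-exposed cells (2 gained and 1 lost), 8 were lost with all peaks, 1 was gained and 3 lost with the better 4607, 1 gained and 4 lost with 50% cover, 2 lost by fold enrichment, and 29 gained and 47 lost under the lenient rule. Over all regions of each setting, the gained and lost counts in these 3 comparisons were 5 and 771, 8 and 1210, and 33 and 137 with all peaks. They were 43 and 54, 75 and 62, and 52 and 52 with the better 4607, and 25 and 408, 21 and 617, and 41 and 86 with 50% cover. By fold enrichment they were 103 and 116, 107 and 163, and 60 and 89, and under the lenient rule 643 and 756, 747 and 988, and 638 and 763. The untreated full lists are longer and the lenient rule asks for fewer calls, but the cause of the shifts was not tested.

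With each library left out in turn, fewer calls are needed, and the 3 comparisons gave 3 to 10 gained and 7 to 17 lost, 6 to 13 gained and 12 to 24 lost, and 2 to 12 gained and 4 to 17 lost, in the order above. Over all regions these were 110 to 191 and 154 to 281, 143 to 240 and 227 to 410, and 127 to 176 and 160 to 239. A 500 bp window kept every count within 1.5 times. Of the 20 calls of named regions, 6 held with all deposited peaks, 10 with 50% cover and 14 by fold enrichment. With the better 4607 peaks 12 did not hold and 8 had no region.

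The mean number of set regions called in B16_untreated, B16_IFNg and Res499 was 1090, 633 and 563 with all peaks, 190, 174 and 169 with the better 4607, and 388, 265 and 236 with 50% cover. The same means over all regions were not made, so these are not results about the set. In B16_untreated it was 411 by fold enrichment and 403 without transfer and ribosomal RNA genes, and with 1 library left out the group means were 418 to 432, 398 to 430 and 391 to 410.

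limma called 0 set regions in every comparison under every alternative run. With the replicate number as a block the count was 0 too, with 12, 15 and 13 of 142 at an unadjusted p under 0.05, against 203, 312 and 304 of all 4481 regions. What the replicate number stands for is not stated in the labels. Of the 9 pairs with the same number, 1 had deviations that correlated above 0.1. However, 8 of 9 libraries correlated best with one of their own number. The replicate number also goes partly with fragment class, and the part of each was not tested. Depth limits what a missing call shows, since the lists differ in length and a region without a kept peak may be open below the peak caller's threshold.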
